A study of Mus musculus with 6 samples.

Results

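Transcripts of glycolysis and of the hypoxia response were followed in ribosome-bound RNA precipitated from whole lungs, with the tag directed to pericytes. The groups were control mice and mice with inducible deletion of the Hippo effector genes Yap1 and Wwtr1 (which encodes TAZ). The set comprises 35 genes named by symbol, matched through the Ensembl identifiers of GENCODE M21 among the 21603 genes of the series. All 35 were found, and 32 of them passed the filter on low values used for testing, at least 1 RPKM (reads scaled to exon length and to the mapped reads of the library) in at least 3 of the 6 samples. Aldoc, Eno2 and Car9 stayed below it. Hk2 was the only tested gene of the set below 1 RPKM in any sample, with 1 control above it.

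RNA was recovered with the RiboTag method, in which Cre recombination adds an HA epitope to the ribosomal protein RPL22 and anti-HA immunoprecipitation from whole lung lysate collects RNA on tagged ribosomes. Both groups were C57BL/6 mice at P8, given tamoxifen from P0 to P2, and both carried 1 copy of the Pdgfrb(BAC)-CreERT2 transgene and the Rpl22 lox/+ allele, so that Cre acts in PDGFRβ+ cells. The 3 control lungs were Yap1 lox/+ Wwtr1 lox/+ and therefore already lacked a copy of each gene after recombination (Yap1+/-;Wwtr1+/- in the labels). The 3 Yap1,Wwtr1 iPCKO lungs were Yap1 lox/lox Wwtr1 lox/lox (Yap1-/-;Wwtr1-/-). Animals were grouped irrespective of sex.

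Steps in the low values implied denominators of 14.2 to 39.6 M reads per library, with the ranges of the groups overlapping. In the iPCKO samples Yap1 transcripts were at 45.4% of the control mean, whereas Wwtr1 was at 103%, a value per gene that does not separate recombined from other exons. Pdgfrb was at 1192.69 RPKM or more in every sample. Of the 10 pericyte markers, 3 were called higher (Cspg4, Kcnj8 and Abcc9) and 2 lower (Notch3 and Rgs5) in iPCKO samples. Over all tested genes these shares were 4.11% and 2.68%. For all 10 neutrophil markers the lowest iPCKO sample lay above the highest control, against 18.3% of all tested genes. Their summed level was 87.1 to 129 RPKM in controls and 449, 1989 and 4949 RPKM in iPCKO 1, 2 and 3. None of the 10 was at 0 in any sample. The summed level of the leukocyte list ranged from 60.1 to 79.8 RPKM in controls and from 149 to 264 RPKM in iPCKO samples, and that of the platelet list from 12 to 13.9 and from 39.7 to 95.8 RPKM. The Y-linked transcript Ddx3y was at 17.22 RPKM in control 1 and 19.75 RPKM in control 3 and at 0 in control 2 and the 3 iPCKO samples. Sex and genotype can therefore not be told apart except through control 2, and the changed genes of the set are therefore also given for control 2 against the 3 iPCKO samples, a comparison chosen after seeing the data. In immunoprecipitated bulk RNA, fewer cells of a type and less RNA per cell cannot be told apart.

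Glycolysis converts glucose into pyruvate in the cytosol through a fixed series of enzymes, most of which exist as isozymes encoded by separate genes. Lactate dehydrogenase turns pyruvate into lactate, which leaves the cell through monocarboxylate transporters, while pyruvate dehydrogenase kinases limit its entry into the mitochondrial citric acid cycle. The hypoxia-inducible factors are dimers of an oxygen-labile alpha subunit (Hif1a, or Epas1, which encodes HIF2α) with the stable partner encoded by Arnt. In the presence of oxygen, prolyl hydroxylases (the Egln genes) mark the alpha subunit for degradation by the VHL ubiquitin ligase, so this step acts on protein and not on the alpha subunit transcript. Many glycolytic genes, and Egln3 itself, are known targets of these factors, which bind DNA at sites with the core ACGTG.

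RefSeq windows of 300 bases, from 250 before to 50 after an annotated transcription start on GRCm38.p6, were matched for 33 of the 35 genes. No window was matched for Epas1 and Slc2a3. The letters ACGTG, read on either strand and counted once per start position, so that the palindrome CACGTG gives overlapping matches, occurred in at least 1 window of 22 of the 33 genes (66.7%). They occurred in 21.8% of all 27025 genes with windows, and in 29.3% of the 9417 with windows that passed the filter on low values. Genes with several annotated starts have several windows. Stretches are printed only for genes with a match. Among these, Ldha, Aldoa, Pgk1 and Pgam1 were chosen as abundant enzymes with higher levels in iPCKO samples (below). For Ldha and Aldoa the RefSeq start used lies inside the gene as annotated in GENCODE. For all the genes chosen, the stretches of 160 bases before the start hold no annotated exon. They lie at chr7:46845644-46845803 (plus strand), chr7:126799255-126799414 (minus strand), chrX:106186940-106187099 (plus strand) and chr19:41911711-41911870 (plus strand), and are written 5′ to 3′ in the direction of transcription with each match in capitals.
Ldha: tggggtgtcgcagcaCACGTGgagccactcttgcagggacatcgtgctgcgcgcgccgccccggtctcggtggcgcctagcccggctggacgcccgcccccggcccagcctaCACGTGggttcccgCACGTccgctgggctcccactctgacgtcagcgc
Aldoa: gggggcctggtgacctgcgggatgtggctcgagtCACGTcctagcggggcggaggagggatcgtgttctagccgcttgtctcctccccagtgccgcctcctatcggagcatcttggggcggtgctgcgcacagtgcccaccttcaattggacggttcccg
Pgk1: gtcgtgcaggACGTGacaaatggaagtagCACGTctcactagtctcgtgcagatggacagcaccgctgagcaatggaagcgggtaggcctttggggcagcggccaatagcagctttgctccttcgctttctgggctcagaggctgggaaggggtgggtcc
Pgam1: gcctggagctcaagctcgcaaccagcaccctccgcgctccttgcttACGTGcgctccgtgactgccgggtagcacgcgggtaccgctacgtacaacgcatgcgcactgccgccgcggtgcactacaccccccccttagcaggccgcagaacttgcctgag

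Ldha held 5 match starts in this stretch, at 145, 144, 48, 47 and 34 bases before the start, and 4 of these belong to a pair of palindromes. Pgk1 held 2 matches. Shorter stretches of 25 bases around the match are shown for the glucose transporter Slc2a1 (chr4:119108699-119108723 (plus strand)), the lactate exporter Slc16a3 (chr11:120949030-120949054 (plus strand)), the pyruvate kinase Pkm (chr9:59657142-59657166 (plus strand)) and the prolyl hydroxylase Egln3 (chr12:54204089-54204113 (minus strand)). Of these sites those of Slc2a1, Slc16a3 and Pkm reach an exon annotated in GENCODE for the same gene.
Slc2a1: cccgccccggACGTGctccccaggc
Slc16a3: ggcagcggtgACGTGcgcgggggac
Pkm: ccgatccggtCACGTccgcgccgca
Egln3: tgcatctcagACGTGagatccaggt

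The match was about as frequent among changed genes of the set as among the others. It was found for 8 of the 12 genes with an adjusted p below 0.05 and for 12 of the other 18 tested genes with a window. Gpi1, Pfkl, Tpi1 and Ldhb, all among the 12, held none in their windows. The letters GGAATG, the core bound by TEAD, the DNA-binding partner of YAP1 and TAZ, occurred in windows of 5 of the 33 genes (15.2%), against 16.6% of all genes, and Aldoa was the only such gene among the 12. A match is a description of these letters and says nothing of binding.

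Calls were made at an adjusted p below 0.01 and a log2 fold change beyond 0.5 in either direction (limma on log2(RPKM + 0.1), n = 3 lungs per group). Across the set, 3 of the 32 tested genes were called higher in the Yap1,Wwtr1 iPCKO samples, namely Slc2a1, Ldha and Aldoa. This is 9.38% of the tested set, against 4.11% of all 12034 tested genes. None was called lower, against 2.68% of all tested genes, and at an unadjusted p below 0.05 the number was 18 higher (56.2%, against 16.1% of all) and 1 lower (3.12%, against 13.6%). At an adjusted p below 0.05, 12 genes of the set were higher (37.5%, against 8.63% of all genes) and none lower (6.52%). The 12 are Gpi1, Pfkl, Aldoa, Tpi1, Pgk1, Pgam1, Pkm, Ldha, Ldhb, Slc2a1, Slc16a3 and Egln3, so 9 of them encode glycolytic enzymes or lactate dehydrogenase subunits. Not all of the 12 held this threshold in other fits. Without control 3, Gpi1, Pfkl, Tpi1, Pgk1, Pkm and Egln3 had adjusted p-values of 0.0501 to 0.102 (limma). With Y-linked transcripts as a covariate only Slc2a1 stayed below 0.05 (adjusted p = 0.0326, limma). In control 2 against the 3 iPCKO samples the 12 log2 fold changes lay between 0.28 for Tpi1 and 0.92 for Slc2a1. Their sign could not turn, because for all 12 each iPCKO sample lay above the highest control. The 3 iPCKO samples lay above the 3 controls for 16 of the 32 genes (50%, against 18.3% of all) and below them for Arnt alone (3.12%, against 17.1%). The median log2 fold change was 0.34, ranging from -0.27 for Epas1 to 1.32 for Slc2a3, whereas the median over all tested genes was 0.

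**Figure D1:**
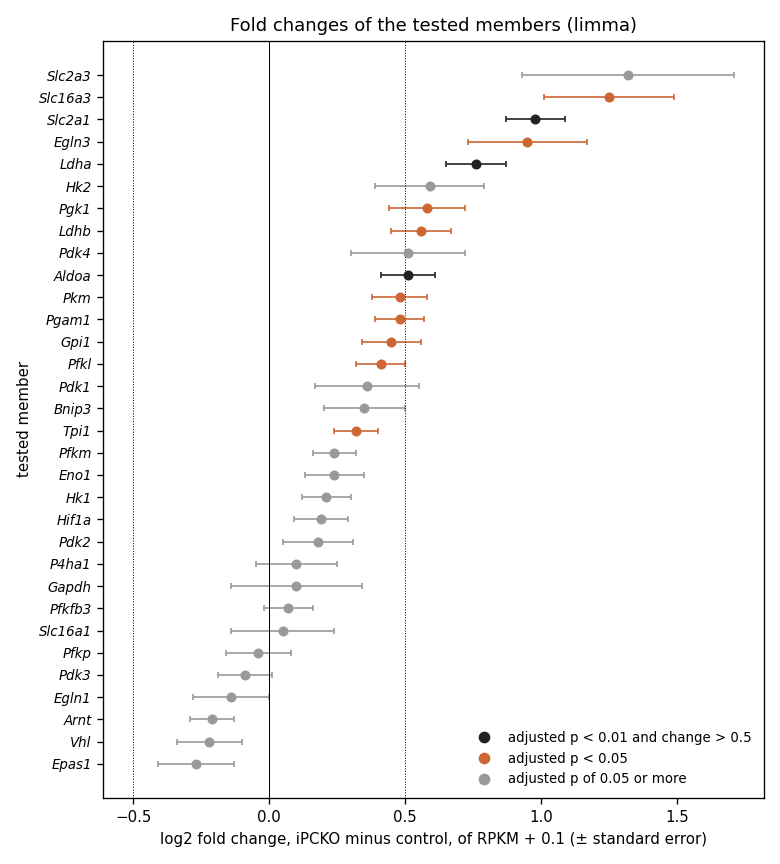
Log2 fold change (iPCKO minus control, horizontal axis) of each of the 32 tested genes, ordered by size, with bars for the standard error from limma and dotted lines at 0.5 and -0.5. Slc2a1, Ldha and Aldoa (black) passed both thresholds, the 9 orange genes had an adjusted p below 0.05, and the 6 genes below 0 were all grey.

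Relative to the control mean, the median deviation of the 32 genes was 0.21 in iPCKO 1, 0.36 in iPCKO 2 and 0.38 in iPCKO 3 on the log2 scale, and between -0.05 and 0.04 in the controls. Of the 32 genes, 17 lay above the highest control in iPCKO 1, 23 in iPCKO 2 and 25 in iPCKO 3. Below the lowest control lay 5, 4 and 4. The share of all tested genes was not computed for single samples, so these counts are a description only. The summed level of the 15 glycolytic step genes, which RPKM allows because it is per length, was 288.3, 320.4 and 308.3 RPKM in controls and 401.3, 398.7 and 440.9 RPKM in iPCKO samples, or 135% of the control mean. The samples of the groups did not overlap.

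Glucose enters cells through facilitative transporters, and Slc2a1, which encodes the broadly expressed GLUT1, had the lowest adjusted p of the set (chromosome 4, 119108711 to 119137983). Its level was 1.80, 1.95 and 1.86 RPKM in the controls and 3.59, 4.06 and 3.74 RPKM in the iPCKO samples. The groups were tight and well apart, with 1.87 ± 0.0772 RPKM (SD, n = 3) against 3.8 ± 0.239 RPKM. On the log2 scale the difference was 0.98 with a standard error (SE) of 0.11 and an adjusted p of 0.000837 (limma), and Slc2a1 stayed called when any of the 6 samples was left out. With control 2 alone against the 3 iPCKO samples it was 0.92, with an adjusted p of 0.0506 (range over all alternatives 2.3e-05 to 0.0506) in a fit that called 31 of all genes. Slc2a1 did not follow the order of the neutrophil markers among iPCKO samples.

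Slc2a3 encodes GLUT3, a transporter of high glucose affinity known from neurons, leukocytes and platelets. It had 1.75, 1.80 and 2.25 RPKM in controls and 2.60, 4.80 and 9.60 RPKM in iPCKO samples. All iPCKO values were above the controls, but they spread widely and had the order of the neutrophil markers. The log2 fold change of 1.32 (SE 0.39) did not pass, with an adjusted p of 0.0527, and it was 0.85 without iPCKO 3 (adjusted p = 0.0819). It passed both thresholds without iPCKO 1 (1.77, adjusted p = 0.00325) and with sample weights (1.24, adjusted p = 0.00266), within a range of 0.00266 to 0.316 over all alternatives. The part of leukocytes and platelets in this difference was not tested. The share of Slc2a1 in the sum of the 2 transporters was 58% in iPCKO 1, 45.8% in iPCKO 2 and 28% in iPCKO 3, against 45.2% to 51.9% in controls.

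At the first step of glycolysis, hexokinase phosphorylates glucose. Hk1, the more abundant isozyme, had 7.90, 8.15 and 8.54 RPKM in controls and 8.91, 9.97 and 9.53 RPKM in iPCKO samples, which did not overlap, and a log2 fold change of 0.21 (adjusted p = 0.154, limma). Hk2, the form known to be inducible by insulin and hypoxia, had 0.87, 1.13 and 0.93 RPKM against 1.24, 1.42 and 1.93 RPKM, a log2 difference of 0.59 (SE 0.2, adjusted p = 0.0917). Neither isozyme passed the test.

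Glucose-6-phosphate isomerase, encoded by Gpi1, had 17.03, 17.92 and 17.14 RPKM in controls and 20.69, 23.49 and 27.76 RPKM in iPCKO samples, a log2 fold change of 0.45 (adjusted p = 0.0292). Phosphofructokinase, which commits sugar to glycolysis, is built from liver, muscle and platelet-type subunits. The liver type Pfkl had 8.21, 9.49 and 9.52 RPKM in controls and 12.63, 11.73 and 11.86 RPKM in iPCKO samples (log2 fold change 0.41, adjusted p = 0.0194). Only this subunit had an adjusted p below 0.05. Pfkm had 8.49, 8.96 and 8.83 RPKM against 10.19, 11.03 and 9.94 RPKM (0.24, adjusted p = 0.0915), whereas Pfkp had 4.31, 4.75 and 4.3 RPKM against 3.72, 4.84 and 4.50 RPKM and a log2 fold change of -0.04 (adjusted p = 0.868). Pfkfb3, which makes and removes the phosphofructokinase activator fructose 2,6-bisphosphate, had 6.07, 6.01 and 6.22 RPKM against 5.96, 6.38 and 6.90 RPKM, and its groups overlapped.

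Aldoa encodes the aldolase that splits fructose bisphosphate (chromosome 7, 126795234 to 126800751). It had 43.33, 49.29 and 49.83 RPKM in controls and 63.84, 66.62 and 72.82 RPKM in iPCKO samples. Each iPCKO sample was clearly above each control. The log2 difference of 0.51 (SE 0.1, adjusted p = 0.00876, limma) lay just past both thresholds, and the call was lost whichever of the 6 samples was left out, with an adjusted p between 0.0101 and 0.0365 and a log2 fold change between 0.45 and 0.55. In control 2 against the iPCKO samples it was 0.46 (adjusted p = 0.164, range over all alternatives 0.00062 to 0.175). Aldoc stayed between 0.11 and 0.37 RPKM in every sample.

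Triose phosphate isomerase (Tpi1) had 42.08, 45.15 and 44.58 RPKM in controls and 52.75, 55.57 and 56.65 RPKM in iPCKO samples, a small change of 0.32 with little spread (SE 0.08, adjusted p = 0.0311). Phosphoglycerate kinase 1, encoded by Pgk1 on the X chromosome, had 15.31, 21.19 and 18.83 RPKM against 26.21, 25.12 and 31.20 RPKM (0.58, adjusted p = 0.0224). The control without Ddx3y, control 2, was the highest of the controls, and on its own it gave a log2 fold change of 0.37 (adjusted p = 0.287, range over all alternatives 0.00696 to 0.353). Phosphoglycerate mutase (Pgam1) had 16.49, 19.29 and 18.91 RPKM against 27.01, 23.91 and 25.55 RPKM (0.48, adjusted p = 0.0105). For these 3 genes no iPCKO sample fell into the range of the controls.

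Gapdh and Eno1 overlapped between the groups. Glyceraldehyde-3-phosphate dehydrogenase (Gapdh) was listed at 2.18, 3.13 and 2.25 RPKM in controls and at 2.01, 2.47 and 3.80 RPKM in iPCKO samples, far below the enzymes on either side of it. Its log2 fold change was 0.1 with a standard error of 0.24 (adjusted p = 0.824). Of the distinct 75-base words in its GENCODE transcripts, 22.6% also occurred in transcripts of other genes, 118 genes in all and 115 of them annotated as pseudogenes. How reads that map to several genes were counted is not given in the sources used here, so the level of Gapdh is uncertain. Eno1 (enolase) had 12.63, 15.76 and 13.97 RPKM against 15.25, 16.83 and 17.90 RPKM, a log2 fold change of 0.24 (adjusted p = 0.176). Eno2 stayed between 0.29 and 0.56 RPKM.

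Sharing of words with other genes was also high for Pgk1 (52.8%), Pgam1 (34.9%), Eno1 (23%), Pkm (17.8%) and Ldhb (12.6%), whose levels are uncertain for that reason. It was 0% for Slc2a1, 2.47% for Ldha and 0.54% for Aldoa.

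The last step, catalysed by pyruvate kinase, had the most abundant enzyme transcript of the set. Pkm had 108.99, 115.71 and 110.28 RPKM in controls and 156.17, 145.01 and 166.77 RPKM in iPCKO samples. The log2 difference of 0.48 (SE 0.1, adjusted p = 0.0115, limma) fell just short of both thresholds. The files give 1 value per gene, so the M1 and M2 splice forms of Pkm were not separated.

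**Figure D2:**
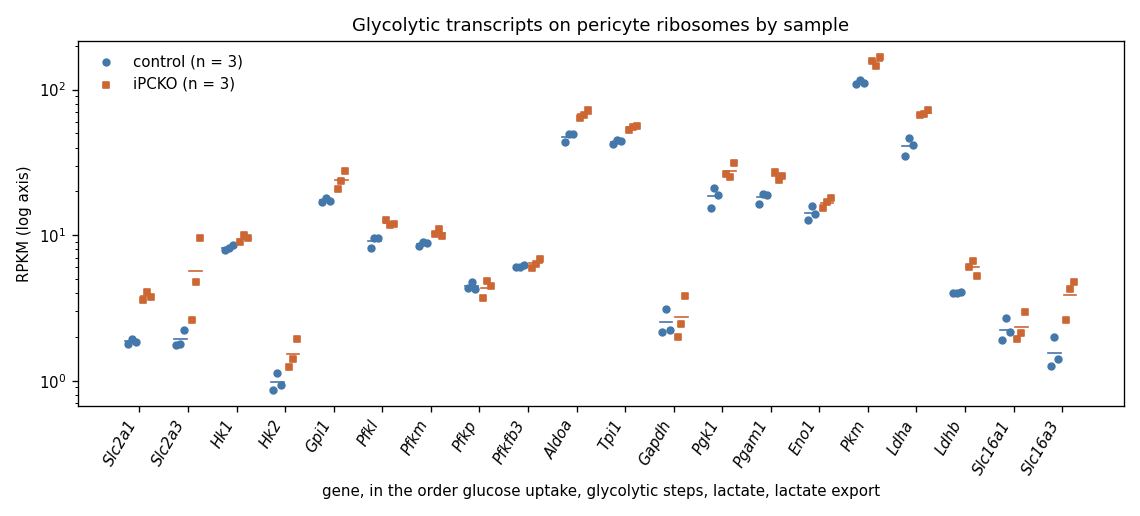
RPKM (log axis) of 20 genes in the order glucose uptake, glycolytic steps, lactate formation and lactate export, with circles for the 3 controls, squares for the 3 iPCKO samples and lines for the means. The squares lie above the circles at most steps, from Slc2a1 at 1.80 to 4.06 RPKM up to Pkm at 108.99 to 166.77 RPKM, while Pfkp, Pfkfb3, Gapdh, Eno1 and Slc16a1 overlap.

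Lactate dehydrogenase is a tetramer of A and B subunits, of which the A subunit favours the formation of lactate. Ldha (chromosome 7, 46841475 to 46855627) had 34.92, 46.31 and 41.58 RPKM in controls and 66.50, 67.88 and 72.10 RPKM in iPCKO samples, 168% of the control mean. The iPCKO samples lay close together, whereas the controls differed more among themselves. This gave a log2 difference of 0.76 (SE 0.11, adjusted p = 0.00305, limma). Ldha stayed called when control 1, control 2 or iPCKO 1 was left out. It lost the call without control 3, iPCKO 2 or iPCKO 3, at adjusted p-values of 0.0146, 0.0142 and 0.0146 and fold changes of 0.77, 0.77 and 0.72. Control 2 alone, the highest control, gave 0.57 (adjusted p = 0.0866, range over all alternatives 0.000135 to 0.0947).

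Ldhb had 4.04, 4.02 and 4.06 RPKM in controls and 6.08, 6.68 and 5.27 RPKM in iPCKO samples, a log2 difference of 0.56 (adjusted p = 0.0106). The share of Ldha in their sum was 89.6%, 92% and 91.1% in controls and 91.6%, 91% and 93.2% in iPCKO samples, which overlapped.

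Among the lactate carriers the isozymes differed. Slc16a3 encodes MCT4, the carrier known for lactate export from glycolytic cells (chromosome 11, 120948480 to 120960868), and had 1.26, 2.01 and 1.41 RPKM in controls and 2.63, 4.3 and 4.74 RPKM in iPCKO samples. The difference of 1.25 on the log2 scale (SE 0.24, adjusted p = 0.0102, limma) was just outside the threshold of 0.01. The iPCKO samples had the order of the neutrophil markers, whose part in the difference was not tested. Against control 2 alone it was 0.88 (adjusted p = 0.247, range over all alternatives 0.000295 to 0.247). In iPCKO 1, the mutant sample with the lowest neutrophil level, Slc16a3 was above the highest control. So was the summed level of the neutrophil markers in that sample (449 RPKM against 87.1 to 129 RPKM). Slc16a1, which encodes MCT1, had 1.91, 2.68 and 2.16 RPKM against 1.94, 2.13 and 2.96 RPKM, a log2 fold change of 0.05 (adjusted p = 0.905) whose sign changed with quantile normalization. The share of Slc16a1 in the sum of the pair was 60.3%, 57.2% and 60.5% in controls and 42.5%, 33.1% and 38.5% in iPCKO samples.

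The composition of 12 isozyme families or subunits was compared in this way by an exact permutation test, two-sided, in which 0.1 is the smallest p that 3 lungs against 3 allow. The groups did not overlap for 6 of the 12 shares, each with an exact p = 0.1 (0.2 after Benjamini-Hochberg adjustment over the 12), so none passed. Slc16a1 had the widest difference, -21.33 percentage points, which became -13.56 points when Slc16a7 and Slc16a8 were added to the sum. Egln1 in the sum of Egln1 and Egln3 followed with -15.97 points, and with -6.22 points once Egln2, as abundant as Egln1, was added. The difference was -5.5 points (-3.36 without control 1) for Epas1 in the sum of Hif1a and Epas1, 4.39 and -3.77 points for Pfkl and Pfkp among the phosphofructokinases, and 3.22 points for Hk2 in the sum of Hk1 and Hk2. Aldoa made up 99.5% or more of the sum of Aldoa and Aldoc in every sample. Eno1 made up 96.8% or more of the sum of Eno1 and Eno2, but 81.3% to 84.8% in controls and 77.5% to 80.9% in iPCKO samples once Eno3 was added.

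**Figure D3:**
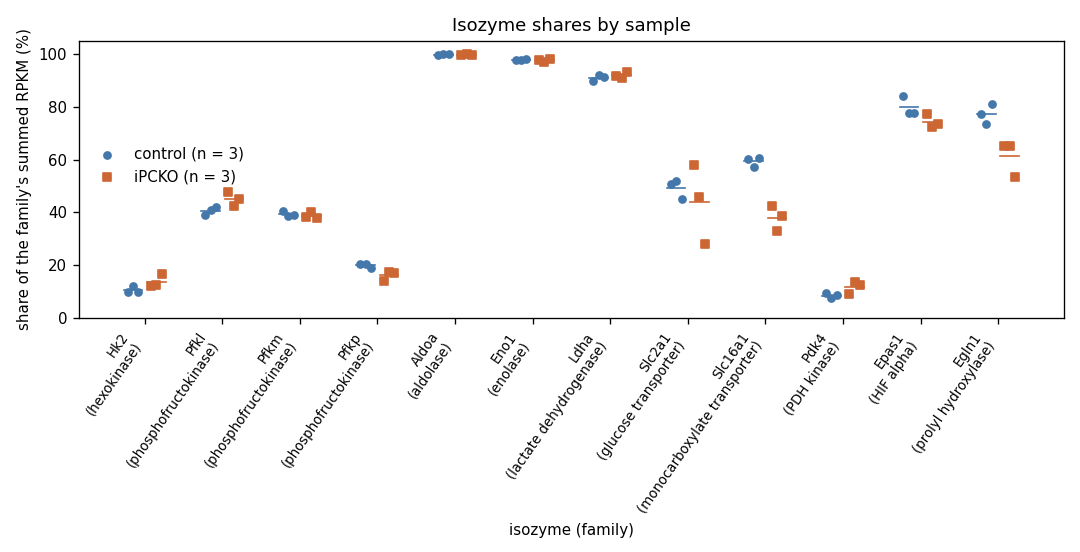
Share of an isozyme in the summed RPKM of the genes of its family within the set (percent, vertical axis) for 12 isozymes, with circles for controls, squares for iPCKO samples and lines for the means. The groups separate most for Slc16a1 (57.2% to 60.5% against 33.1% to 42.5%) and Egln1, while Aldoa, Eno1 and Ldha make up most of these sums in all 6 samples.

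The 4 pyruvate dehydrogenase kinases, which phosphorylate and inactivate the enzyme that feeds pyruvate into the citric acid cycle, overlapped between the groups, and none of the 4 was called (limma, 1 at an unadjusted p below 0.05). Pdk3, the most abundant, had 13.27, 13.05 and 12.57 RPKM in controls and 11.75, 11.22 and 13.59 RPKM in iPCKO samples (log2 fold change -0.09, adjusted p = 0.56). Pdk1 had a mean of 1.27 RPKM in controls and 1.67 RPKM in iPCKO samples, Pdk2 of 6.2 and 6.98 RPKM, and Pdk4 of 1.92 and 2.81 RPKM. Their log2 fold changes were 0.36, 0.18 and 0.51, with adjusted p-values of 0.242, 0.41 and 0.148.

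Epas1, the HIF2α transcript, was the most abundant of all 35 in controls. It had 143.15, 101.33 and 110.78 RPKM in controls and 104.10, 90.89 and 96.17 RPKM in iPCKO samples, which overlapped (log2 fold change -0.27, SE 0.14, adjusted p = 0.223), and the log2 fold change was -0.06 against control 2 alone. Hif1a had 27.02, 29.26 and 31.67 RPKM against 30.83, 34.68 and 34.78 RPKM (0.19, adjusted p = 0.223). The share of Epas1 in their sum fell outside the control range in every iPCKO sample, at 77.2%, 72.4% and 73.4% against 84.1%, 77.6% and 77.8%, by a margin of less than a percentage point for the closest samples. Arnt had 13.43, 13.16 and 13.37 RPKM against 11.34, 11.85 and 11.34 RPKM. These groups were tight and apart, yet the log2 fold change of -0.21 (SE 0.08) did not pass (adjusted p = 0.108).

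Of the genes that act on HIF degradation, Egln3, which encodes the inducible prolyl hydroxylase PHD3, had an adjusted p below 0.05. Its level was 5.24, 4.67 and 3.04 RPKM in controls and 7.59, 6.98 and 10.51 RPKM in iPCKO samples, a log2 difference of 0.95 (SE 0.22, adjusted p = 0.0202, limma). Egln1, which encodes the main oxygen-sensing hydroxylase PHD2, had 17.99, 12.87 and 13.05 RPKM against 14.16, 13.17 and 12.11 RPKM (-0.14, adjusted p = 0.55), with a sign that turned when control 1 was left out. Vhl had 17.01, 15.71 and 17.29 RPKM against 16.45, 14.71 and 11.96 RPKM (-0.22, adjusted p = 0.26).

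Of 3 further hypoxia targets, the 2 that were tested did not pass. P4ha1, a collagen prolyl 4-hydroxylase subunit, had 14.87, 21.45 and 21.14 RPKM in controls and 22.37, 19.21 and 19.22 RPKM in iPCKO samples (0.1, adjusted p = 0.708), with a sign that turned under sample weights. Bnip3, a mitophagy receptor, had a mean of 5.03 RPKM in controls and 6.36 RPKM in iPCKO samples (0.35, adjusted p = 0.155). Car9, a carbonic anhydrase strongly induced by HIF1α in many cell types, lay between 0.02 and 0.21 RPKM in all 6 samples and was not tested.

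**Figure D4:**
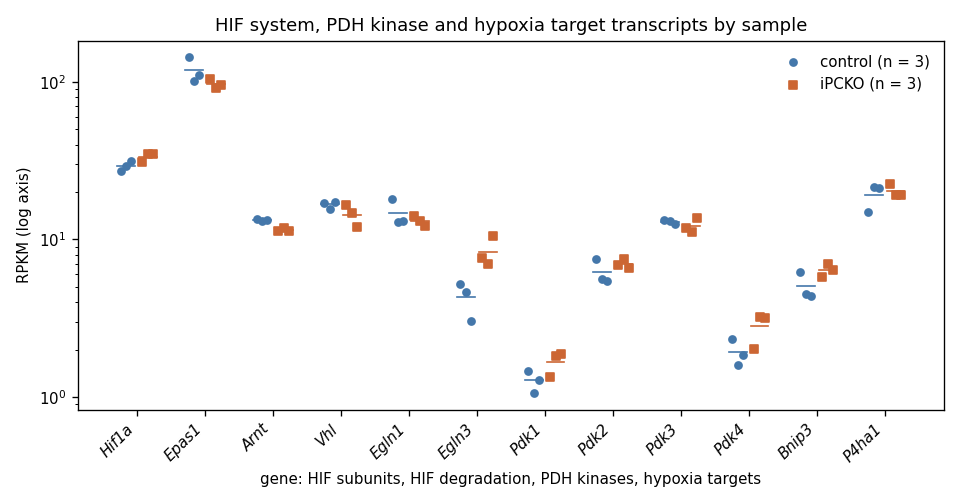
RPKM (log axis) of the HIF subunits, the genes of HIF degradation, the PDH kinases and 2 hypoxia targets, with circles for controls, squares for iPCKO samples and lines for the means. Egln3 is higher in all 3 iPCKO samples (6.98 to 10.51 against 3.04 to 5.24 RPKM) and Arnt lower, while the other genes overlap.

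The mean levels of the leukocyte, neutrophil and platelet lists were above every control in all 3 iPCKO samples. These cells are known to use glycolysis, and their part in the differences from control was not tested. Among the tested set, 13 of 32 genes (40.6%) were lowest in iPCKO 1 and highest in iPCKO 3 among the mutant samples, the order of the neutrophil markers, against 18.1% of all tested genes. Among the 12 with an adjusted p below 0.05, 5 did (41.7%; Gpi1, Aldoa, Tpi1, Ldha and Slc16a3), against 32% of all 1039 genes that were higher at this threshold, whereas Pfkl, Pgk1, Pgam1, Pkm, Ldhb, Slc2a1 and Egln3 did not. The median deviation of the 32 genes given above was 0.21, 0.36 and 0.38 in iPCKO 1, 2 and 3. Its values in iPCKO 2 and 3 were closer together than its spread between replicates (pooled SD 0.07), so they give no order. All 8 tested macrophage markers also lay above every control, against 18.3% of all tested genes, with a median log2 fold change of 1.03. The part of macrophages was not tested either.

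**Figure D5:**
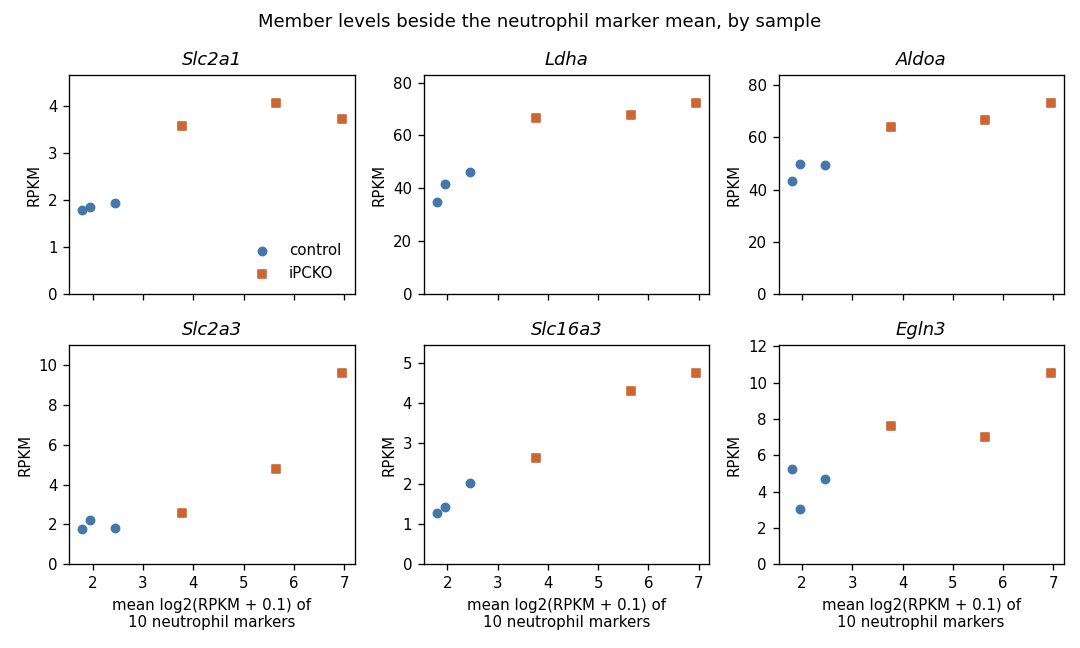
RPKM of 6 genes (vertical axes from 0) against the mean log2(RPKM + 0.1) of 10 neutrophil markers (horizontal axis) in the 3 controls and 3 iPCKO samples. Slc2a3 spreads from 2.60 to 9.60 RPKM in iPCKO samples in the order of the marker mean, whereas Slc2a1 stays between 3.59 and 4.06 RPKM.

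Other genes of these pathways were read from further lists. Over all tested genes, 4.11% were called higher and 2.68% lower. Of 15 further glycolytic isozymes, 6 were tested and 1 was called, Pfkfb4, a kinase and phosphatase of fructose 2,6-bisphosphate that is known as hypoxia-inducible. It had 6.13, 6.03 and 6.60 RPKM in controls and 12.06, 11.01 and 10 RPKM in iPCKO samples (log2 fold change 0.8, adjusted p = 0.00111, limma). Of 7 tested carriers, 2 were called higher. Slc2a4, the insulin-responsive transporter GLUT4, had 2.63, 2.52 and 2.35 RPKM against 5.17, 4.94 and 4.38 RPKM (0.92, adjusted p = 0.00108). Embigin (Emb), an accessory protein of monocarboxylate transporters, had 3.87, 4.96 and 4.16 RPKM against 8.28, 9.52 and 15.26 RPKM (1.28, adjusted p = 0.00456). Neither Pfkfb4 nor Slc2a4 had the order of the neutrophil markers, whereas Emb did.

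The 32 tested further hypoxia response genes had a median log2 fold change of 0.08 (limma). At an unadjusted p below 0.05, 9 were higher and 3 lower, against 16.1% and 13.6% of all tested genes. Of the 32, 4 were called higher (against 4.11% of all) and none lower (against 2.68%). Besides Pfkfb4 these were Ak4, a mitochondrial adenylate kinase, with 1.64, 1.49 and 1.41 RPKM against 5.69, 4.56 and 3.71 RPKM (1.54), Plod1, a collagen lysyl hydroxylase, with 10.58, 11.05 and 10.69 RPKM against 17.46, 18.81 and 18.66 RPKM (0.76), and the heme oxygenase Hmox1, with 2.54, 2.60 and 2.53 RPKM against 4.44, 6.13 and 5.52 RPKM (1.03). At an adjusted p below 0.05, 5 of the 32 were higher and 3 lower, against 8.63% and 6.52% of all tested genes. The 3 lower were Lox (-0.81, adjusted p = 0.0167), Adm (-0.64, adjusted p = 0.0452) and Wsb1 (-0.31, adjusted p = 0.0398, limma). Of 13 further regulators of the HIF system none was called (1 higher and 1 lower at an unadjusted p below 0.05), and their median log2 fold change was 0.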

How the data were processed

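RNA-seq of anti-HA precipitated lung RNA was analysed in 3 control and 3 iPCKO samples, grouped and numbered by their labels. The authors sequenced stranded total RNA libraries as paired ends, mapped them to mm10 with TopHat, counted genes with HTSeq 0.6.1 and tested with DESeq2. The deposited tables hold the authors' RPKM per Ensembl gene. The gene length used is not given in the sources used here, and error from read counts is no longer visible in such values. Symbols and 1-based coordinates come from GENCODE M21 (GRCm38).

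Here log2(RPKM + 0.1) was tested with limma 3.58.1 (R 4.3.3; lmFit, eBayes with intensity trend, Benjamini-Hochberg adjustment over the 12034 genes that reached 1 RPKM in 3 or more samples). No further scaling was applied. A gene is called with an adjusted p under 0.01 and a log2 fold change beyond ±0.5, as in the study. Fold changes on this scale understate changes of low genes. The code was tested on simulated data. Shares were compared with exact permutation tests (scipy 1.17.1). The limma p-values weigh a difference against the spread between these lungs, moderated by that of all tested genes.

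The genes, the further lists and the tests were chosen with earlier results of these data known. Values per sample are given for genes that were called or had an adjusted p below 0.05, for the most abundant gene of each step or role, and for isozymes whose share separates the groups, and other genes of the set by means or ranges. Of the further lists (isozymes, carriers, pyruvate entry, pentose phosphate, HIF regulators, hypoxia response), called genes are named. For the hypoxia response the lower genes at an adjusted p below 0.05 are named too. Marker lists cover pericytes and other lung and blood cells. Replicate numbers do not pair the samples. Alternatives were the replicate block, filters, pseudocounts, scalings, sample weights, no trend, thresholds, a Y-linked covariate and each sample left out, and, added after seeing the data, samples without Y-linked transcripts. Promoter windows are from RefSeq (GRCm38.p6).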

Additional observations from a re-analysis of the deposited data

How the results depend on the processing

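The number of genes of the set called higher, 3, was 8 with sample weights (1590 genes called in all, against 817), 7 at an adjusted p below 0.05 (1313), 0 at an absolute log2 fold change above 1 (411), 0 with Y-linked transcripts as a covariate (119) and, in a comparison added after seeing the data, 0 in the samples without them (31). Leaving out each sample gave 1 to 5 genes of the set (382 to 899 in all), with 1, Slc2a1, in the fits without control 3 (382) and without iPCKO 2 (414). No gene of the set was called lower under any alternative, and the median log2 fold change stayed between 0.27 and 0.37. With the replicate block, whose pairing comes from the labels only (deviations of samples with the same number correlated at 0.24, 0.09 and 0.02), 4 of the set were called and 922 genes in all. Slc16a3 was added, and no other call within the set changed.

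The sign turned for 5 uncalled genes. Slc16a1 went from 0.05 to -0.01 with quantile normalization, -0.09 with sample weights, -0.21 with the covariate, -0.21 in samples without Y-linked transcripts, -0.06 without control 1 and -0.13 without iPCKO 3. Gapdh (-0.15 to 0.29 with a sample left out) went to -0.01 with weights, -0.23 with the covariate, -0.22 in samples without Y-linked transcripts and -0.15 without iPCKO 3. P4ha1 (-0.08 to 0.19) went to -0.09 with weights, -0.08 with the covariate, -0.09 in samples without Y-linked transcripts and -0.08 without control 1. Egln1 went to 0.02 with the covariate, 0.03 in samples without Y-linked transcripts and 0.02 without control 1. Pfkp (-0.12 to 0.07) went to 0.07 with weights, 0.01 without control 2 and 0.07 without iPCKO 1. Of the shares, that of Slc2a1 went from -5.32 points to 2.86 when further transporters were added and ranged from -12.36 to 2.64 with a sample left out, and that of Eno1 went from -0.2 to -3.79 with Eno3 added and ranged from -0.46 to 0.17 with a sample left out. The other 10 shares kept their sign under every alternative reported here, but with further isozymes added Egln1 went from -15.97 to -6.22 points and Slc16a1 from -21.33 to -13.56. With a sample left out, Hk2 ranged from 1.73 to 4.03, Epas1 from -6.92 to -3.36, Pfkm from -1.24 to -0.08, Aldoa from -0.22 to -0.07 and Ldha from 0.39 to 1.58. The cause was not tested.

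Below about 1 RPKM, as for Aldoc, Eno2 and Car9, differences were not tested, and with 3 lungs a group the exact test cannot go below p = 0.1.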

Other observations

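The pentose phosphate pathway branches off glycolysis at glucose-6-phosphate and supplies NADPH and ribose. Of 13 genes of this pathway and of gluconeogenesis, 10 were tested and 1 was called higher, against 4.11% of all tested genes. This was the transketolase Tkt, which returns sugars to glycolysis. Tkt had 18.26, 20.83 and 19.87 RPKM in controls and 29.91, 29.46 and 34.92 RPKM in iPCKO samples (log2 fold change 0.67, adjusted p = 0.00265, limma). At an adjusted p below 0.05, 3 of the 10 were higher, against 8.63% of all tested genes, and none lower, against 6.52%. At an unadjusted p below 0.05, 7 were higher and 1 lower, against 16.1% and 13.6% of all. The 3 iPCKO samples lay above the controls for 7 of the 10, against 18.3% of all, and below them for 2, against 17.1%.

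Of 12 genes for the entry of pyruvate into mitochondria (the carrier, the pyruvate dehydrogenase complex, its phosphatases, pyruvate carboxylase and citrate synthase), all were tested and none was called (limma, 1 higher and 1 lower at an unadjusted p below 0.05). Their median log2 fold change was 0.01, within a range of -0.22 to 0.52, and their summed level was 203 to 213 RPKM in controls and 205 to 211 RPKM in iPCKO samples.

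Among the other marker lists, called genes numbered 2 higher of 7 tested for smooth muscle and myofibroblasts, 0 of 7 for fibroblasts (2 higher and 1 lower at an unadjusted p below 0.05), 1 higher of 8 for endothelial cells, 2 higher of 9 for alveolar epithelium, 2 higher of 8 for macrophages (8 higher at an unadjusted and 5 at an adjusted p below 0.05) and 0 of 7 for erythrocytes (0 at an unadjusted p below 0.05). Over all tested genes, 4.11% were called higher and 2.68% lower. At an unadjusted p below 0.05, 16.1% of all were higher and 13.6% lower, and 8.63% were higher at an adjusted p below 0.05.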
